A study of Mus musculus with 40 samples.

Results

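The synaptic vesicle and release machinery was described here through 41 genes: vesicle proteins, SNAREs, calcium sensors, active zone proteins, endocytic proteins and synucleins. A gene was a member when its Ensembl identifier in the count table mapped to one of the listed mouse symbols, and 41 of 55487 genes were members. The study measured RNA in astrocyte-like cells and motor neurons differentiated from mouse embryonic stem (ES) cells and kept together in culture. It comprised 40 libraries: 2 cell types, 5 treatments and 4 replicates (A to D) of each, every library made from about 200 sorted cells. The question was how inflammatory stimulation of the ES-astrocytes alters both cell types.

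The ES cell line was derived from B6.Cg-Tg(Hlxb9-GFP)1Tmj/J mice, in which the Hb9 promoter drives eGFP, and a single line gave both cell types. ES-astrocytes of every group, control included, had been matured with forskolin. The stimulated groups received IL-1α with TNF-α, C1Q with C5, IL-1β with IL-6, or TGF-β2 for 24 h, and the control groups received none of these. ES-motor neurons were sorted by eGFP and seeded on top of the ES-astrocytes, and the cells were sorted again before lysis, so a motor neuron group is named after what its astrocytes had received. Per the study's methods the ES-astrocyte medium stayed in place at seeding. The paper names a small risk of leftover stimulus in it, which it holds to be likely negligible. Co-cultures that were fixed ran for 24 h after seeding, and no separate time is given for those sorted for RNA. These are cultured cells, each library draws on few of them, and per the study's methods a replicate is 1 vial of a passage.

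Neurotransmitter is stored in synaptic vesicles and released when the vesicle SNARE synaptobrevin (Vamp) zips together with syntaxin and SNAP-25 of the plasma membrane; synaptotagmins sense calcium, and complexins hold and then assist the assembled SNAREs. RIM, Munc13, Bassoon and Piccolo organise and prime the release site, NSF with its adaptors takes used SNARE complexes apart, and clathrin adaptors, amphiphysin, dynamin and synaptojanin retrieve the membrane. Motor neurons release acetylcholine with this machinery, while astrocytes secrete through related and more widely expressed proteins.

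The deposited values were raw read counts. In control cultures the total counts of libraries A to D were 1280778, 19717324, 240859 and 2383502 for ES-motor neurons and 7866943, 13384392, 2848750 and 6467280 for ES-astrocytes. The lowest, median and highest totals of the 16 stimulated libraries were 6557, 796030 and 14329617 for ES-motor neurons and 1510823, 4413880 and 16054290 for ES-astrocytes. The median ES-motor neuron library was thus the shallower one in both conditions, while ES-motor neuron control B was the deepest of all 40 libraries; the part of depth in the differences between the cell types was not tested. Levels are given as CPM, counts scaled to a common effective library size (the total times edgeR's TMM factor). A count of 3, the floor used here for a gene at 0, equalled 0.153 to 202 CPM per library in ES-motor neurons and 0.2295 to 2.04 CPM in ES-astrocytes; reads carry no molecular identifiers, so floors and intervals cover counting error alone.

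Some libraries stood apart. In 9 ES-motor neuron libraries the total fell short of 20% of the median over all 40 libraries, 2459460.5 counts. They were control C with 240859 counts, the 4 libraries of IL-1α and TNF-α with 117344, 445874, 300549 and 112775, C1Q and C5 A with 6557, IL-1β and IL-6 B with 80315 and D with 146775, and TGF-β2 A with 283205. The C1Q and C5 library A had counts for 12 of the 41 genes. Among the ES-astrocytes, control A had summed astrocyte markers of 729 CPM and differed from control B, C and D for several members. Control and IL-1α with TNF-α were on plate 1 and the 3 other stimuli on plate 2, so plate and those stimuli cannot be told apart, and each cell type carried its own index primers, so primer and cell type cannot be told apart either.

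The labels were compared with markers of cell types, a list being given as the summed CPM of its genes (lowest, median and highest library). The 9 motor neuron markers summed to 1126, 2034 and 2619 CPM in control ES-motor neurons, led by Mnx1. In control ES-astrocytes 7 of the 9 had counts and the list summed to 119, 223 and 467 CPM, led by Lhx4 (mean 170 CPM). Mnx1, the gene of the Hb9 promoter in the reporter, stood at 1647, 1763, 715 and 539 CPM in control ES-motor neurons A to D and 21.2, 2.98, 0 and 0.171 in control ES-astrocytes, and Isl2 and Slc5a7 were at 0 in the control ES-astrocytes. The 14 astrocyte markers summed to 729, 3386 and 4419 CPM in control ES-astrocytes and to 204, 341 and 601 in control ES-motor neurons. Fabp7 led that list in the ES-astrocytes and Sox9 in the ES-motor neurons; the defining markers Gfap, Aqp4 and Aldh1l1 were at 0 in all 20 ES-astrocyte libraries, and S100b and Aldoc were also at 0 in the control ones.

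RNA of general neuronal genes was present in the ES-astrocyte libraries, and this bears on every comparison between the cell types: the 12 neuron markers all had counts there and summed to 2918, 3859.5 and 4785 CPM in control ES-astrocytes (led by Stmn2) against 15347, 16500 and 20201 in control ES-motor neurons (led by Gap43). In stimulated cultures the same sums were 3205, 4666 and 6624 and 6196, 18502 and 25118 CPM. The 12 markers of interneurons and other neurons, which share Slc32a1, Slc17a6 and Slc17a7 with the release genes listed beside the members, summed to 89.7, 289 and 311 CPM in control ES-astrocytes (led by Gata3). In control ES-motor neurons they summed to 1.43, 25.5 and 46.1, led by Lhx1 and with Gad1, Slc32a1, Slc17a6, Slc17a7, Pax2 and Lhx5 at 0. The 10 markers of neural progenitors and cycling cells summed to 932, 1073 and 1255 CPM in control ES-astrocytes (led by Top2a) and 11.5, 13.2 and 31.9 in control ES-motor neurons. The 6 fibroblast and mesenchyme markers summed to 93.1, 241 and 1119 CPM in control ES-astrocytes (led by Dcn) and 0, 0.0255 and 0.477 in control ES-motor neurons, and to 36.8, 195 and 456 and 0, 0 and 5.900 in stimulated ones. The 6 neuroendocrine markers (led by Cpe) summed to 265, 373 and 495 CPM in control ES-astrocytes and 526, 611 and 772 in control ES-motor neurons, and overlapped in stimulated ones. The part of these other cells in the members' values was not tested, and in bulk RNA fewer cells of a type and less RNA per cell cannot be told apart.

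The strand of counting is not given in the sources, and the exons of several members overlap those of a gene on the opposite strand in GENCODE M21, so reads of such a pair cannot be told apart. The pair with the closest counts was Syn3 and Timp3: Syn3 had 9422 counts over all libraries and Timp3 10158, with counts equal and above 0 in 8 libraries. Taking the lesser of both counts in each library, Timp3 matched 95.02% of the Syn3 counts. By the same measure Araf matched 100% of the Syn1 counts, Colgalt1 84.1% of Unc13a, 4930404I05Rik 44.6% of Synj1, Mpv17l2 41.4% of Rab3a and 8030443G20Rik 17.5% of Rab3b; a gene with many reads of its own reaches a high share without sharing any. The share was 3.31% for Syt4 with Gm26658 and 6.61% for Syp with Gm14703.

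Both cell types were first compared in control cultures, 4 ES-motor neuron against 4 ES-astrocyte libraries, with edgeR's quasi-likelihood test over the 10199 genes that passed a filter on low counts. A log2 fold change above 0 means a higher level in ES-motor neurons, and calls needed a p of at most 0.05 after Benjamini-Hochberg adjustment and an absolute log2 fold change above 1. Of the 27 members that passed the filter, edgeR called 0 in either direction, beside 0.569% of all genes tested called higher and 1.67% called lower. An unadjusted p under 0.05 was reached by 4 members, Syt1, Snap91 and Sncg on the higher side and Cplx2 on the lower, beside 10.6% of all genes tested (14.8% of the members). DESeq2 called 2 members, Syt1 as higher and Cplx2 as lower, beside 2.26% of its 12230 genes called higher and 3.98% lower. The log2 fold change was above 0 for 19 of the 27 and below 0 for 8, with a median of 0.70; over all genes tested 41.7% were above 0 and the median was -0.20. All 4 ES-motor neuron libraries lay above all 4 ES-astrocyte libraries in CPM for Syt1, Rab3c and Snap91, and below them for Cplx2; over all genes tested 4.46% lay wholly above and 6.25% wholly below.

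The same contrast was then taken in stimulated cultures, 16 against 16 libraries with the stimulus as a term, which share no library with the control comparison. Of 12507 genes tested 3.47% were called higher and 8.81% lower; of the 34 members tested 4 were called higher (Syt4, Amph, Snap91 and Sncg) and 2 lower (Syn3 and Cplx2), and the Syn3 counts cannot be told apart from those of Timp3. An unadjusted p under 0.05 was reached by 13 members, 11 higher and 2 lower (38.2%, beside 24.5% of all genes tested). DESeq2 called 5 members higher and 2 lower, with Cplx1 and Syngr3 in and Syt4 out, beside 3.25% of its 13257 genes called higher and 7.98% lower. The log2 fold change was above 0 for 26 of the 34 and below 0 for 8, with a median of 0.61 beside -0.11 over all genes tested, of which 44.1% were above 0. The 16 libraries of one cell type lay wholly above or below the other for 0 members, beside 0.128% of all genes tested wholly above and 0.888% wholly below.

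Because the median of all genes tested was not at 0, the members were also read relative to it, taken over the genes of the edgeR test under each scaling. In control cultures that median was -0.20 with TMM and -0.21 with the RLE and DESeq2 size factors, and the members' median less it was 0.90 with TMM and 0.91 with both others. In stimulated cultures it was -0.11, -0.23 and -0.18 with TMM, RLE and DESeq2, and the members' median less it was 0.72, 0.69 and 0.65. Over those genes 26 of the 34 members lay above the median and 8 below under each of the 3 scalings. This depended on the genes: over the 13257 genes that DESeq2 tested itself the stimulated median was 0.73, above the members' DESeq2 median of 0.48, with 11 of the 34 above it and 23 below. In control cultures the median over the 12230 genes of DESeq2 was -0.072, with 20 of the 27 members above it. Relative to the stimulated median the 6 called members stood at 1.17 (Syt4), 3.23 (Amph), 2.25 (Snap91), 1.33 (Sncg), -1.50 (Syn3) and -2.78 (Cplx2) with TMM and the genes of edgeR.

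The stimulated comparison was repeated within each plate, a choice made after seeing the data. On plate 1 (IL-1α with TNF-α, 4 against 4 libraries, all ES-motor neuron ones shallow) edgeR called 0 of 26 members, with 2 at an unadjusted p under 0.05 (of all genes 10.7%), beside 0.643% of 8249 genes called higher and 2.18% lower. On plate 2 (the 3 other stimuli) it called 5 of 35 members higher, Snap25 beside the 4 above, and Syn3 and Cplx2 lower, beside 2.77% of 12476 genes called higher and 7.24% lower. The log2 fold changes on plates 1 and 2 were 0.29 and 1.25 for Syt4, 0.99 and 3.73 for Amph, and 2.22 and 2.05 for Snap91. They were 0.93 and 1.28 for Sncg and -1.61 and -1.64 for Syn3, so each called member kept its direction on both plates.

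**Figure D1:**
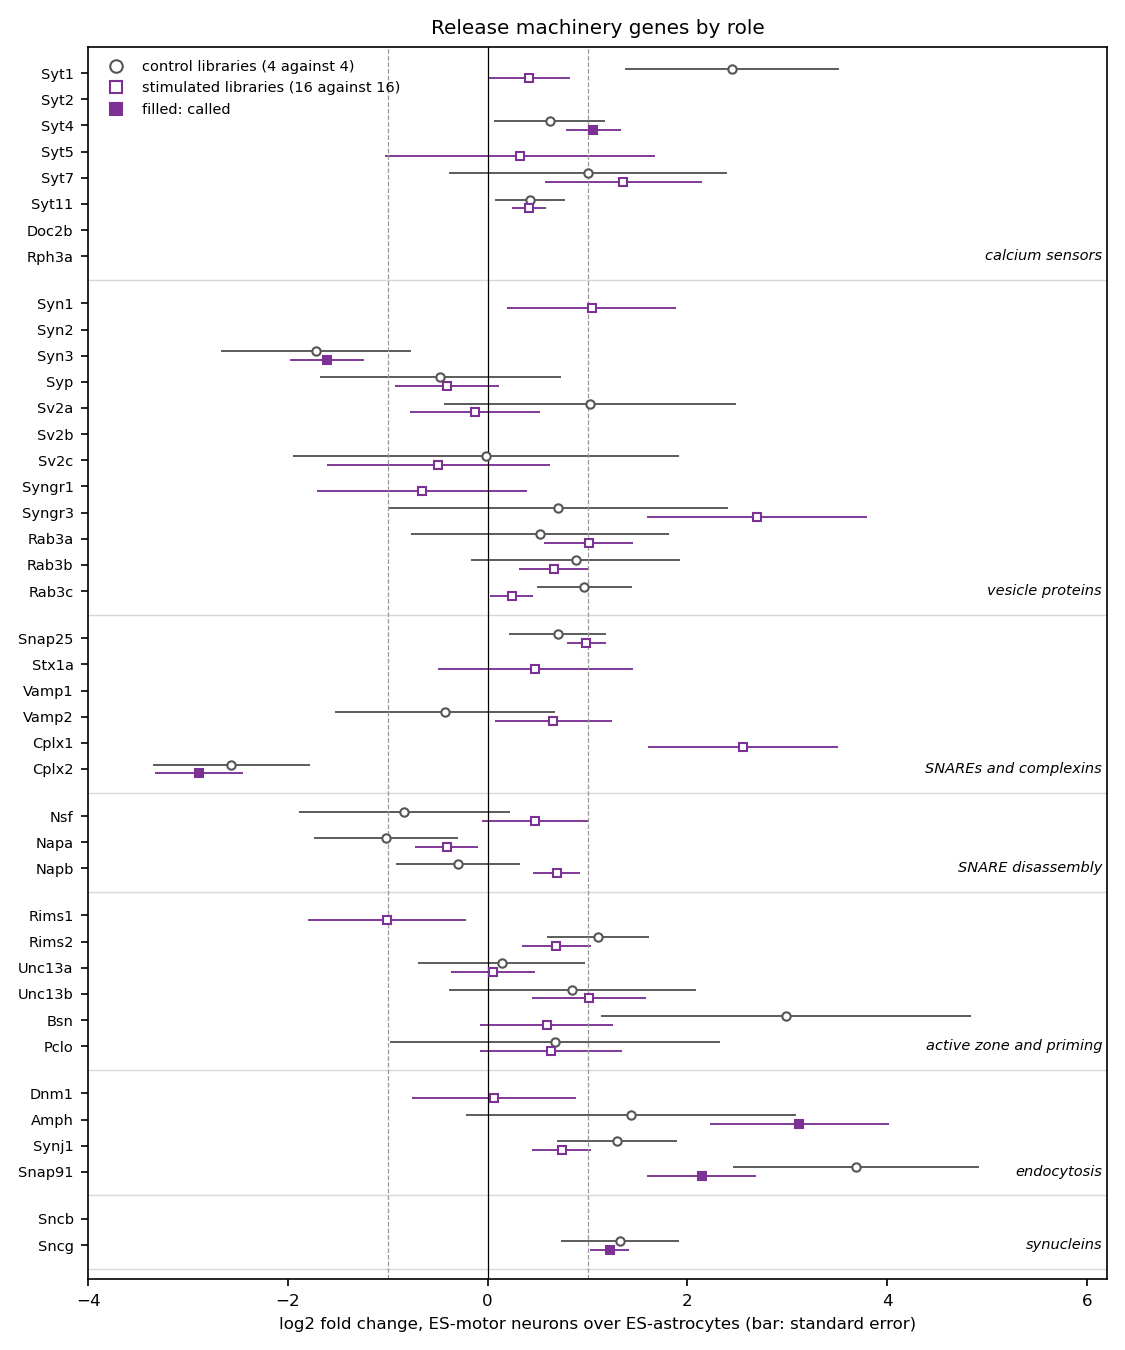
Log2 fold change (x axis) of each of the 41 genes (y axis, grouped by role) between ES-motor neurons and ES-astrocytes, with circles for control cultures (4 against 4 libraries), squares for stimulated cultures (16 against 16), bars for the SE, filled symbols for called genes and dashed lines at -1 and 1. Filled squares mark Syt4, Amph, Snap91 and Sncg on the higher side and Cplx2 and Syn3 on the lower, where Syn3 cannot be told apart from Timp3, and 0 circles are filled.

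Among the 8 calcium sensors, synaptotagmin 1 (Syt1) triggers fast synchronous release. Its level in control libraries A to D was 10.8, 14.2, 49.9 and 19.5 CPM in ES-motor neurons and 5.97, 1.26, 5.83 and 4.44 CPM in ES-astrocytes. All ES-motor neuron values were above all ES-astrocyte values, but 2 of them rest on 12 and 13 counts, and the log2 fold change was 2.44 ± 1.07 (SE, adjusted p = 0.434) in edgeR. DESeq2 called it (log2 fold change 2.41, adjusted p = 0.0452; the adjusted p ran from 0.0452 to 0.868 over 14 alternatives). In stimulated cultures the lowest, median and highest levels were 0, 25.5 and 67.6 CPM in ES-motor neurons and 2.57, 25.7 and 45.7 CPM in ES-astrocytes, so the groups overlapped, with a log2 fold change of 0.42 ± 0.40 (SE, adjusted p = 0.615).

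Synaptotagmin 4 (Syt4, ENSMUSG00000024261) lacks calcium binding in one of its C2 domains and sits on dense-core and other secretory vesicles. Control libraries gave 155, 124, 207 and 282 CPM in ES-motor neurons and 24.8, 174, 145 and 170.1 CPM in ES-astrocytes. The ranges overlapped, with ES-astrocyte library A the lowest, and the log2 fold change was 0.62 ± 0.55 (SE, adjusted p = 0.814). In stimulated cultures the lowest, median and highest levels were 73.6, 251 and 930.3 CPM in ES-motor neurons against 64.5, 121 and 265 in ES-astrocytes. Of 16 ES-motor neuron libraries 8 lay above every ES-astrocyte library and 14 above the ES-astrocyte median (C1Q and C5 A on 2 counts); Syt4 was called with a log2 fold change of 1.06 ± 0.27 (SE, adjusted p = 0.00485), a fold of 2.08.

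That call sat close to the fold limit. Leaving out any of 16 single libraries brought the log2 fold change of Syt4 to between 0.83 and 1.00 and so under the limit. These were, among ES-astrocytes, TGF-β2 A, B and C, C1Q and C5 B and D, IL-1α and TNF-α B, and IL-1β and IL-6 B. Among ES-motor neurons they were TGF-β2 A, C and D, C1Q and C5 B, C and D, IL-1β and IL-6 B and C, and IL-1α and TNF-α D; the lowest value, 0.83 (adjusted p = 0.0167), came without TGF-β2 A, whose Syt4 level of 930.3 CPM was the highest. In all Syt4 was called in 19 of 40 alternatives, with an adjusted p of 0.00275 to 0.943. Besides those 16 it was not called in DESeq2 (log2 fold change 0.95), with RLE (0.96), with no filter (0.98), in the fit of all 40 libraries (0.97) and in the plate 1 libraries (0.29). It was called with the replicate block (1.09), without the shallow libraries (1.15) and in the plate 2 libraries (1.25).

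Synaptotagmin 11 (Syt11), which does not bind calcium, regulates endocytosis and vesicle trafficking. In control libraries it stood at 225, 210.3, 223 and 319 CPM in ES-motor neurons and 120.2, 205, 208 and 212 CPM in ES-astrocytes, with a log2 fold change of 0.42 ± 0.35 (SE). The ES-motor neuron libraries were near or above the upper end of the ES-astrocyte range, and in stimulated cultures the log2 fold change was 0.41 ± 0.17 (SE, adjusted p = 0.108). Synaptotagmin 7 (Syt7), a sensor of asynchronous release, gave 15.4, 11.1, 3.84 and 0 CPM in control ES-motor neurons and 7.14, 2.17, 2.19 and 3.59 CPM in control ES-astrocytes. Its groups overlapped, and the log2 fold change was 1.00 ± 1.39 (SE) in control (1.60 without ES-motor neuron library D and 1.59 without ES-astrocyte library A) and 1.36 ± 0.79 (SE, adjusted p = 0.3105) in stimulated cultures. The remaining sensors, Syt2, Syt5, Doc2b and rabphilin (Rph3a), were too low to test in control cultures, and of these Syt5 was tested in stimulated ones (0.32 ± 1.35, and -0.67 without ES-motor neuron TGF-β2 D). Rph3a had 0, 6.12, 3.84 and 0 CPM in control ES-motor neurons and 0 counts in control ES-astrocytes, at least 50.8-fold higher against a floor of 3 counts over the group. That bound rests on library B, which held 120 of the 121 counts. The 1 count left without it is under the floor, so no bound is given there. In stimulated cultures Rph3a had 0 counts in all 16 ES-motor neuron libraries and 4 counts in ES-astrocytes, all in C1Q and C5 A. Syt2, a fast sensor like Syt1, had 0 counts in control ES-motor neurons and 11.6, 0.1805, 2.91 and 0 CPM in ES-astrocytes, at least 31.5-fold lower; ES-astrocyte library A held 109 of the 119 counts, and without it the bound is at least 3.91-fold. Doc2b was listed at 0 in all control libraries.

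Of the 12 vesicle proteins, synapsins tether vesicles to one another and to actin. Synapsin 3 (Syn3) stood at 28.9, 13.8, 7.68 and 20.97 CPM in control ES-motor neurons and 2.13, 149.6, 53.2 and 38.8 CPM in control ES-astrocytes. ES-astrocyte library A was below every ES-motor neuron library and the 3 others above them; the log2 fold change was -1.71 ± 0.95 (SE, adjusted p = 0.598), and -0.70 without ES-astrocyte library B. In stimulated cultures the lowest, median and highest levels were 0, 19.7 and 45.00 CPM in ES-motor neurons against 11.01, 50.3 and 234 in ES-astrocytes, and it was called lower with -1.61 ± 0.37 (SE, adjusted p = 0.00152). Of the 16 ES-motor neuron libraries 5 lay below every ES-astrocyte library, 2 of them shallow ones on 0 and 1 counts (C1Q and C5 A, IL-1α and TNF-α D) that 3 counts would have placed above the lowest, and 0 lay above the ES-astrocyte median.

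The call of Syn3 cannot be assigned to Syn3 itself: most of its reads cannot be told apart from those of Timp3, the gene whose exons overlap it, and Timp3 showed the same pattern. Timp3 stood at 18.98, 0.459, 0 and 20.02 CPM in control ES-motor neurons A to D and 6.498, 169.9, 60.8 and 54.02 in control ES-astrocytes, close to the Syn3 values of the same ES-astrocyte libraries B, C and D. In stimulated cultures its lowest, median and highest levels were 0, 16.2 and 42.3 CPM in ES-motor neurons and 4.59, 55.3 and 242 in ES-astrocytes, with a log2 fold change of -1.91 ± 0.38 (SE, adjusted p = 2.57e-04). Counts of Syn3 beyond those of Timp3 in the same library summed to 276 in control ES-motor neurons (261 of them in library B) and 0 in control ES-astrocytes, and to 173 (91 in TGF-β2 B) and 20 in stimulated ones. That remainder lay on the side opposite to the call; it was examined after the values were seen, counts as 0 wherever Timp3 had more counts than Syn3, and was not tested.

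Synapsin 1 (Syn1) had 1.81, 17.5, 23.05 and 0 CPM in control ES-motor neurons and 27.9, 0.0902, 0 and 0 CPM in control ES-astrocytes, uneven in both, and Syn1 and Syn2 were not tested there. In stimulated cultures Syn1 gave 1.04 ± 0.84 (SE), or 1.64 without ES-astrocyte C1Q and C5 D (0.46 to 2.62 over 40 alternatives). Synaptophysin (Syp), an abundant vesicle membrane protein, gave 5.42, 9.34, 0 and 16.2 CPM in control ES-motor neurons and 20.7, 6.59, 3.64 and 14.2 CPM in control ES-astrocytes. Those ranges overlapped, and the log2 fold change was -0.47 ± 1.21 (SE) in control and -0.41 ± 0.52 (SE) in stimulated cultures. Sv2a, a vesicle glycoprotein, gave 0.904, 11.2, 0 and 10.01 CPM in control ES-motor neurons and 2.56, 8.21, 0.728 and 0.171 CPM in control ES-astrocytes. In stimulated cultures its lowest, median and highest levels were 0, 4.34 and 51.9 CPM in ES-motor neurons and 0, 9.75 and 36.6 in ES-astrocytes; the groups overlapped in both comparisons and the log2 fold change was 1.02 ± 1.46 (SE) in control and -0.12 ± 0.65 (SE) in stimulated cultures, on opposite sides of 0. Its relative Sv2c gave -0.016 ± 1.94 (SE) in control and -0.49 ± 1.11 (SE) in stimulated cultures, the latter 0.14 without ES-astrocyte C1Q and C5 C and -1.10 without ES-motor neuron IL-1α and TNF-α C, and Sv2b was listed at 0 in all control libraries.

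Synaptogyrins are vesicle membrane proteins that act in trafficking. Syngr3 had 4.52, 6.79, 23.05 and 20.97 CPM in control ES-motor neurons and 22.9, 0, 0 and 10.4 CPM in control ES-astrocytes, with overlapping ranges and a log2 fold change of 0.70 ± 1.70 (SE), or 1.98 without ES-astrocyte library A (0.28 to 3.45 over 14 alternatives). In stimulated cultures its lowest, median and highest levels were 0, 5.91 and 67.4 CPM in ES-motor neurons and 0, 0.1898 and 9.59 in ES-astrocytes, with 5 and 7 libraries at 0. The highest ES-motor neuron value rests on 1 count of C1Q and C5 A, where 3 counts equal 202 CPM. Of 16 ES-motor neuron libraries 11 had Syngr3 above the ES-astrocyte median, 4 of them on fewer than 3 counts. EdgeR gave 2.70 ± 1.10 (SE, adjusted p = 0.101) and made no call, whereas DESeq2 called it with an adjusted p of 0.0337 and a log2 fold change of 2.54; the adjusted p ran from 0.0337 to 0.454 over 39 alternatives, and without ES-astrocyte IL-1α and TNF-α B edgeR gave 3.32. Syngr1 had 0, 5.77, 11.5 and 0 CPM in control ES-motor neurons and 0 counts in control ES-astrocytes, at least 48.7-fold higher against a floor of 3 counts over the group; library B held 113 of the 116 counts, and without it the bound is at least 8.39-fold, from 3 counts. In stimulated cultures Syngr1 gave -0.66 ± 1.05 (SE).

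Rab3 proteins are the small GTPases of synaptic vesicles that link them to the release site. Rab3a had 43.4, 80.4, 61.5 and 19.1 CPM in control ES-motor neurons and 118, 0.632, 0.364 and 20.3 CPM in control ES-astrocytes, where library A was far above the others. In stimulated cultures its lowest, median and highest levels were 0, 34.5 and 242 CPM in ES-motor neurons and 2.18, 20.9 and 92.4 in ES-astrocytes, overlapping, with log2 fold changes of 0.52 ± 1.29 (SE) in control and 1.01 ± 0.44 (SE, adjusted p = 0.134) in stimulated cultures; without ES-astrocyte control A the control value was 2.88. Rab3c had 74.1, 98.3, 76.8 and 74.4 CPM in control ES-motor neurons and 46.5, 55.7, 47.3 and 19.1 CPM in control ES-astrocytes. All 4 of its ES-motor neuron values were above all 4 ES-astrocyte values, yet the log2 fold change was 0.97 ± 0.47 (SE, adjusted p = 0.522), and 0.24 ± 0.22 (SE) in stimulated cultures, so it was not called in either. Rab3b gave 0.88 ± 1.05 (SE) and 0.66 ± 0.35 (SE).

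Among the 6 SNAREs and complexins, SNAP-25 (Snap25) is the plasma membrane SNARE of neurons. Control libraries gave 233, 254, 284 and 354 CPM in ES-motor neurons and 44.5, 184, 278 and 208 CPM in ES-astrocytes, with ES-astrocyte library A the lowest and a log2 fold change of 0.70 ± 0.49 (SE, adjusted p = 0.722). Under stimulation the lowest, median and highest levels were 67.4, 313 and 579.8 CPM in ES-motor neurons and 107, 153 and 330.0 in ES-astrocytes. The lowest ES-motor neuron value rests on 1 count of C1Q and C5 A. Of 16 ES-motor neuron libraries 15 lay above the ES-astrocyte median and 6 above every ES-astrocyte library; the log2 fold change was 0.99 ± 0.19 (SE, adjusted p = 1.58e-04), under the fold limit, so Snap25 was not called. It was called without the shallow libraries (log2 fold change 1.17) and in the plate 2 libraries (1.04).

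Complexin 2 (Cplx2) binds the assembled SNARE complex and both clamps and promotes fusion. In control libraries it stood at 4.52, 6.53, 3.84 and 11.4 CPM in ES-motor neurons, on 5, 128, 1 and 24 counts, and at 47.6, 27.4, 22.9 and 65.8 CPM in ES-astrocytes. Every ES-motor neuron value lay below every ES-astrocyte value; edgeR gave a log2 fold change of -2.56 ± 0.78 (SE, adjusted p = 0.158) and made no call, and DESeq2 called it with -2.54 and an adjusted p of 0.00286 (range 0.00286 to 0.406 over 14 alternatives). After stimulation the lowest, median and highest levels were 0, 3.14 and 17.7 CPM in ES-motor neurons, with 4 libraries at 0, against 13.8, 39.3 and 85.4 in ES-astrocytes. Of 16 ES-motor neuron libraries 15 lay below every ES-astrocyte library, but 4 of the 15 were shallow libraries at 0 that cannot be placed. They were C1Q and C5 A, IL-1β and IL-6 B and D, and IL-1α and TNF-α D, where 3 counts equal 202, 33.8, 20.04 and 25.95 CPM, above the lowest ES-astrocyte value. Cplx2 was called lower with a log2 fold change of -2.89 ± 0.44 (SE, adjusted p = 2.93e-06); in the plate 1 and plate 2 libraries alone it was -1.97 and -3.21.

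Complexin 1 (Cplx1), its close relative, was too low to test in control cultures. The lowest, median and highest stimulated levels were 0, 7.48 and 53.1 CPM in ES-motor neurons (3 at 0) and 0, 0.227 and 13.8 in ES-astrocytes (8 at 0). The direction was the opposite of Cplx2, with a log2 fold change of 2.55 ± 0.95 (SE, adjusted p = 0.0643) and no call. It was called in DESeq2, in the fit of all 40 libraries, without ES-motor neuron C1Q and C5 B (log2 fold change 2.67, adjusted p = 0.0495) and without ES-astrocyte C1Q and C5 D (2.76, adjusted p = 0.0478); the adjusted p ran from 0.0301 to 0.175 over 39 alternatives.

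Synaptobrevin 2 (Vamp2) is the vesicle SNARE. It had 8.13, 22.6, 0 and 8.58 CPM in control ES-motor neurons and 20.9, 10.9, 12.4 and 11.3 CPM in control ES-astrocytes, where library A was above the others. Under stimulation the lowest, median and highest levels were 0, 11.9 and 76.7 CPM in ES-motor neurons and 0, 12.9 and 35.3 in ES-astrocytes; the groups overlapped and the log2 fold change was -0.42 ± 1.10 (SE) in control (-1.21 without ES-motor neuron library B) and 0.66 ± 0.59 (SE) in stimulated cultures, on opposite sides of 0. Syntaxin 1A (Stx1a), the plasma membrane partner, had 0.904, 7.96, 0 and 0 CPM in control ES-motor neurons and 0.426, 0, 3.28 and 9.92 CPM in control ES-astrocytes and was not tested there; in stimulated cultures it gave 0.47 ± 0.98 (SE), or 1.16 without ES-astrocyte C1Q and C5 D. Vamp1, another synaptobrevin, was tested in neither comparison.

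The 3 members of SNARE disassembly are the ATPase Nsf and its adaptors α-SNAP (Napa) and β-SNAP (Napb). Napa had 99.4, 186, 80.7 and 43.8 CPM in control ES-motor neurons and 577, 82.1, 88.5 and 83.6 CPM in control ES-astrocytes, where library A stood far above B, C and D. In stimulated cultures its lowest, median and highest levels were 22.6, 90.3 and 354 CPM in ES-motor neurons and 35.5, 123 and 309.9 in ES-astrocytes; the log2 fold change was -1.02 ± 0.72 (SE) in control and -0.41 ± 0.32 (SE) in stimulated cultures. Without ES-astrocyte control A the control value of Napa was 0.35. Napb, the neuronal adaptor, had 35.2, 27.04, 23.05 and 24.3 CPM in control ES-motor neurons and 17.8, 36.9, 27.7 and 54.2 CPM in control ES-astrocytes, overlapping, with -0.30 ± 0.62 (SE). In stimulated cultures it stood at 32.3, 61.9 and 89.04 CPM in ES-motor neurons and 20.7, 40.3 and 78.9 in ES-astrocytes (lowest, median and highest). There 14 of 16 ES-motor neuron libraries lay above the ES-astrocyte median (C1Q and C5 A on 1 count) and 4 above every ES-astrocyte library, with a log2 fold change of 0.69 ± 0.24 (SE, adjusted p = 0.0425), under the fold limit. Nsf had 23.5, 31.2, 0 and 1.43 CPM in control ES-motor neurons and 24.6, 27.6, 29.9 and 22.6 CPM in control ES-astrocytes, with the ES-motor neuron libraries C and D near 0, and gave -0.83 ± 1.05 (SE) in control (-1.60 without ES-motor neuron library B) and 0.47 ± 0.53 (SE) in stimulated cultures.

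Of the 6 active zone and priming genes, 0 were called by edgeR in either comparison and 0 reached an unadjusted p under 0.05; DESeq2 called 0 of them as well. Bassoon (Bsn), a scaffold of the active zone, had 7.23, 30.2, 11.5 and 59.6 CPM in control ES-motor neurons and 13.5, 0, 0 and 0 CPM in control ES-astrocytes. ES-astrocyte library A alone of its group had counts, and the log2 fold change was 2.98 ± 1.85 (SE, adjusted p = 0.668); without that library Bsn was called (adjusted p = 0.0154), with the other ES-astrocyte libraries at 0, and in stimulated cultures it gave 0.59 ± 0.66 (SE). Rims2, a RIM protein that links vesicles to calcium channels, had 84.04, 60.7, 149.8 and 90.1 CPM in control ES-motor neurons and 20.8, 49.1, 41.2 and 70.6 CPM in control ES-astrocytes. One ES-astrocyte value, library D, lay within the ES-motor neuron range, and the log2 fold change was 1.10 ± 0.51 (SE, adjusted p = 0.477) in control and 0.69 ± 0.34 (SE, adjusted p = 0.212) in stimulated cultures. Munc13-1 (Unc13a), which primes vesicles, had 14.5, 20.6, 23.05 and 25.7 CPM in control ES-motor neurons and 30.6, 19.6, 23.7 and 3.59 CPM in control ES-astrocytes. These overlapped, with log2 fold changes of 0.14 ± 0.84 (SE) and, in stimulated cultures, 0.053 ± 0.42 (SE), the sign of which turned with the scaling. Piccolo (Pclo) had 9.94, 13.3, 15.4 and 20.02 CPM in control ES-motor neurons and 0, 18.8, 19.7 and 0 CPM in control ES-astrocytes, with 2 ES-astrocyte libraries at 0, and gave 0.67 ± 1.65 (SE) in control (1.27 without ES-astrocyte library B, and 0.25 to 3.47 over 14 alternatives) and 0.63 ± 0.71 (SE) in stimulated cultures (0.17 to 1.88 over 40 alternatives). The other priming gene of that family, Unc13b, gave 0.85 ± 1.24 (SE) in control cultures (2.88 without ES-astrocyte library C, 0.25 without ES-motor neuron library C) and 1.02 ± 0.57 (SE) in stimulated ones, and Rims1, tested in stimulated cultures only, gave -1.01 ± 0.79 (SE), or -1.83 without ES-motor neuron C1Q and C5 D.

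Among the 4 endocytic genes, AP180 (Snap91) assembles clathrin on vesicle membrane. It had 110.3, 92.9, 131 and 91.5 CPM in control ES-motor neurons and 6.604, 25.7, 0.364 and 0 CPM in control ES-astrocytes. Every ES-motor neuron library was above every ES-astrocyte library, and the log2 fold change was 3.69 ± 1.23 (SE, adjusted p = 0.221), or 5.57 without ES-astrocyte library B. After stimulation the lowest, median and highest levels were 25.2, 72.6 and 187 CPM in ES-motor neurons and 0, 17.96 and 94.2 in ES-astrocytes (4 at 0). All 16 ES-motor neuron libraries lay above the ES-astrocyte median (C1Q and C5 A on 1 count) and 5 above every ES-astrocyte library, and Snap91 was called with 2.15 ± 0.55 (SE, adjusted p = 0.00397), a fold of 4.42. Without the shallow libraries the log2 fold change was 1.91 and the adjusted p 0.145 (range 0.00247 to 0.6202 over 40 alternatives), so the call was lost.

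Amphiphysin (Amph) senses and bends membrane at the neck of endocytic pits. Control libraries gave 9.94, 8.52, 3.84 and 13.8 CPM in ES-motor neurons, on 11, 167, 1 and 29 counts, and 8.52, 0, 0 and 4.79 CPM in ES-astrocytes, where 2 libraries were at 0. The ranges overlapped and the log2 fold change was 1.44 ± 1.65 (SE, adjusted p = 0.874), or 2.53 without ES-astrocyte library A (1.03 to 3.36 over 14 alternatives). The lowest, median and highest stimulated levels were 0, 19.1 and 57.3 CPM in ES-motor neurons (4 at 0) and 0, 0.688 and 13.5 in ES-astrocytes (8 at 0). Of 16 ES-motor neuron libraries 9 lay above every ES-astrocyte library and 12 above the ES-astrocyte median (IL-1β and IL-6 D on 1 count), and Amph was called with 3.12 ± 0.90 (SE, adjusted p = 0.01200), a fold of 8.701. Without ES-astrocyte IL-1β and IL-6 B it was 3.92 (adjusted p = 0.00472), a fold of 15.1. Over 40 alternatives the stimulated log2 fold change of Amph ran from 0.99 to 4.14.

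Synaptojanin 1 (Synj1) removes phosphates from phosphoinositides so that clathrin coats come off. It had 73.2, 74.7, 115 and 123 CPM in control ES-motor neurons and 11.5, 56.4, 75.03 and 20.2 CPM in control ES-astrocytes. ES-astrocyte libraries A and D were the low ones and C lay within the ES-motor neuron range; the log2 fold change was 1.30 ± 0.60 (SE, adjusted p = 0.477) in control and 0.74 ± 0.30 (SE, adjusted p = 0.0915) in stimulated cultures. Dynamin 1 (Dnm1), the neuronal GTPase that severs the vesicle neck, had 4.52, 10.6, 0 and 2.38 CPM in control ES-motor neurons and 1.07, 0.361, 0 and 13.5 CPM in control ES-astrocytes and was not tested there; in stimulated cultures it gave 0.064 ± 0.82 (SE).

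The synucleins are small presynaptic proteins that bind vesicle membrane. γ-synuclein (Sncg) had 262, 532, 165 and 590.1 CPM in control ES-motor neurons and 329, 124, 57.2 and 110.3 CPM in control ES-astrocytes. ES-astrocyte library A lay within the ES-motor neuron range and the other 3 below it, and the log2 fold change was 1.33 ± 0.59 (SE, adjusted p = 0.444); without that library it was 2.05 ± 0.48 (SE, adjusted p = 0.0358), a fold of 4.15, and called. Under stimulation the lowest, median and highest levels were 174, 501 and 850.1 CPM in ES-motor neurons and 90.8, 207 and 396 in ES-astrocytes. There 15 of 16 ES-motor neuron libraries lay above the ES-astrocyte median and 11 above every ES-astrocyte library; Sncg was called with 1.22 ± 0.19 (SE, adjusted p = 6.31e-06), a fold of 2.33. β-synuclein (Sncb) had 0 counts in control ES-motor neurons and 1.92, 0, 0 and 0 CPM in ES-astrocytes, and was tested in neither comparison.

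**Figure D2:**
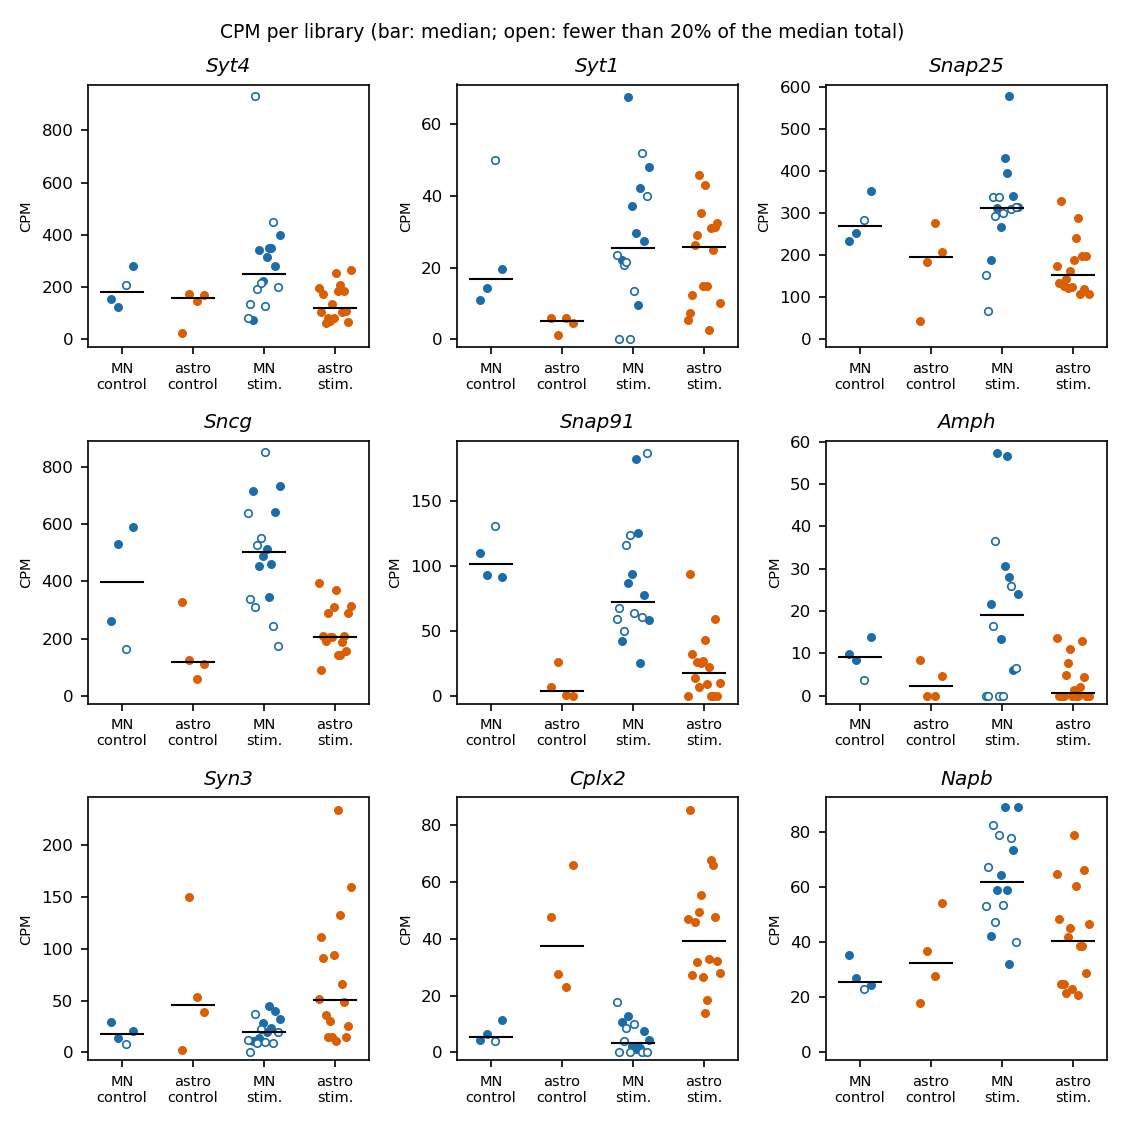
CPM (y axis) of Syt4, Syt1, Snap25, Sncg, Snap91, Amph, Syn3, Cplx2 and Napb in each library of control ES-motor neurons, control ES-astrocytes, stimulated ES-motor neurons and stimulated ES-astrocytes (x axis), with bars at the median and open points for libraries under 20% of the median total. In stimulated cultures 15 of 16 ES-motor neuron libraries are below every ES-astrocyte library for Cplx2, 4 of them shallow ones at 0 whose floor of 3 counts is above the lowest ES-astrocyte value, and 11 are above every one for Sncg.

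The 14 members below the filter in control cultures were Syt2, Syt5, Doc2b, Rph3a, Syn1, Syn2, Sv2b, Syngr1, Stx1a, Vamp1, Cplx1, Rims1, Dnm1 and Sncb. An exact two-sided permutation test of their mean CPM gave p values from 0.143 (Syt2) to 1, 0 of them under 0.05, where 4 against 4 libraries allow no p below 0.0286. That limit is higher for members with counts in few libraries. With counts in 3 ES-astrocyte libraries alone, Syt2 could go no lower than its 0.143. Rph3a and Syngr1, each with counts in 2 ES-motor neuron libraries alone, could go no lower than 0.429. For such members the test could not reach 0.05, so no conclusion is drawn from it. The mean was higher in ES-motor neurons for 7 of the 14, and Doc2b and Sv2b were at 0 in both groups. In stimulated cultures 7 members were not tested: Syt2, Doc2b, Rph3a, Syn2, Sv2b, Vamp1 and Sncb.

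Levels were compared between genes as mean CPM per kb of exon. In control ES-motor neurons Sncg led with 455 CPM per kb, followed by Syt4 (49.4), Syt11 (46.95), Snap25 (41.4), Napa (27.1) and Rab3a (22.9). Control ES-astrocytes had Sncg (182), Napa (54.9), Syt11 (35.8), Syt4 (33.03), Snap25 (26.3) and Rab3a (15.7) as the leading 6, the same genes in another order. Without library A Sncg still led, at 114, Napa stood at 22.4 and Rab3a at 3.196, and Cplx2 (7.86) took the place of Rab3a among the leading 6. Sncg also led both stimulated groups, with 585 CPM per kb in ES-motor neurons and 272 in ES-astrocytes. The CPM of all 41 genes summed to a lowest, median and highest of 1603, 1942 and 2316 in control ES-motor neurons and 1208, 1270.0 and 1617 in control ES-astrocytes. In stimulated cultures the sums were 1414, 2410.2 and 2819 and 1347, 1542 and 1900.2 CPM, with overlapping ranges in each case.

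Neuronal genes of the machinery were set beside a more widely expressed relative, as mean CPM per kb and with no test of the pair. Snap25 and Snap23 stood at 41.4 and 3.45 in control ES-motor neurons and 26.3 and 10.2 in control ES-astrocytes, with Snap25 above Snap23 in 4 of 4 libraries of each. Vamp2 and Vamp3 stood at 2.58 and 11.4 in control ES-motor neurons and 3.64 and 16.04 in control ES-astrocytes, with Vamp3 above in 4 of 4 libraries of each. Napb and Napa stood at 3.89 and 27.1 in control ES-motor neurons and 4.84 and 54.9 in control ES-astrocytes, Napa being above in every library of both. In stimulated ES-motor neurons Snap25 was above Snap23 in 16 of 16 libraries, Vamp2 above Vamp3 in 4 of 16 and Napb above Napa in 3 of 16; in stimulated ES-astrocytes the same held in 15, 0 and 0 of 16.

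The clathrin adaptors were ordered differently: Snap91 and Picalm stood at 11.7 and 9.004 in control ES-motor neurons, with Snap91 above in 4 of 4 libraries, and at 0.895 and 8.503 in control ES-astrocytes, with Snap91 above in 0 of 4. In stimulated cultures Snap91 was above Picalm in 11 of 16 ES-motor neuron libraries (9.72 and 9.61) and 2 of 16 ES-astrocyte libraries (2.53 and 7.81). Synj1 and Synj2 were ordered alike in both cell types, at 11.96 and 0 in control ES-motor neurons and 5.04 and 0.0223 in control ES-astrocytes. Synj1 was above in 4 of 4 libraries of each. Rab3a and Rab3d stood at 22.9 and 2.35 in control ES-motor neurons, with Rab3a above in 4 of 4 libraries. In control ES-astrocytes they stood at 15.7 and 0.172, with Rab3a above in 3 of 4.

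**Figure D3:**
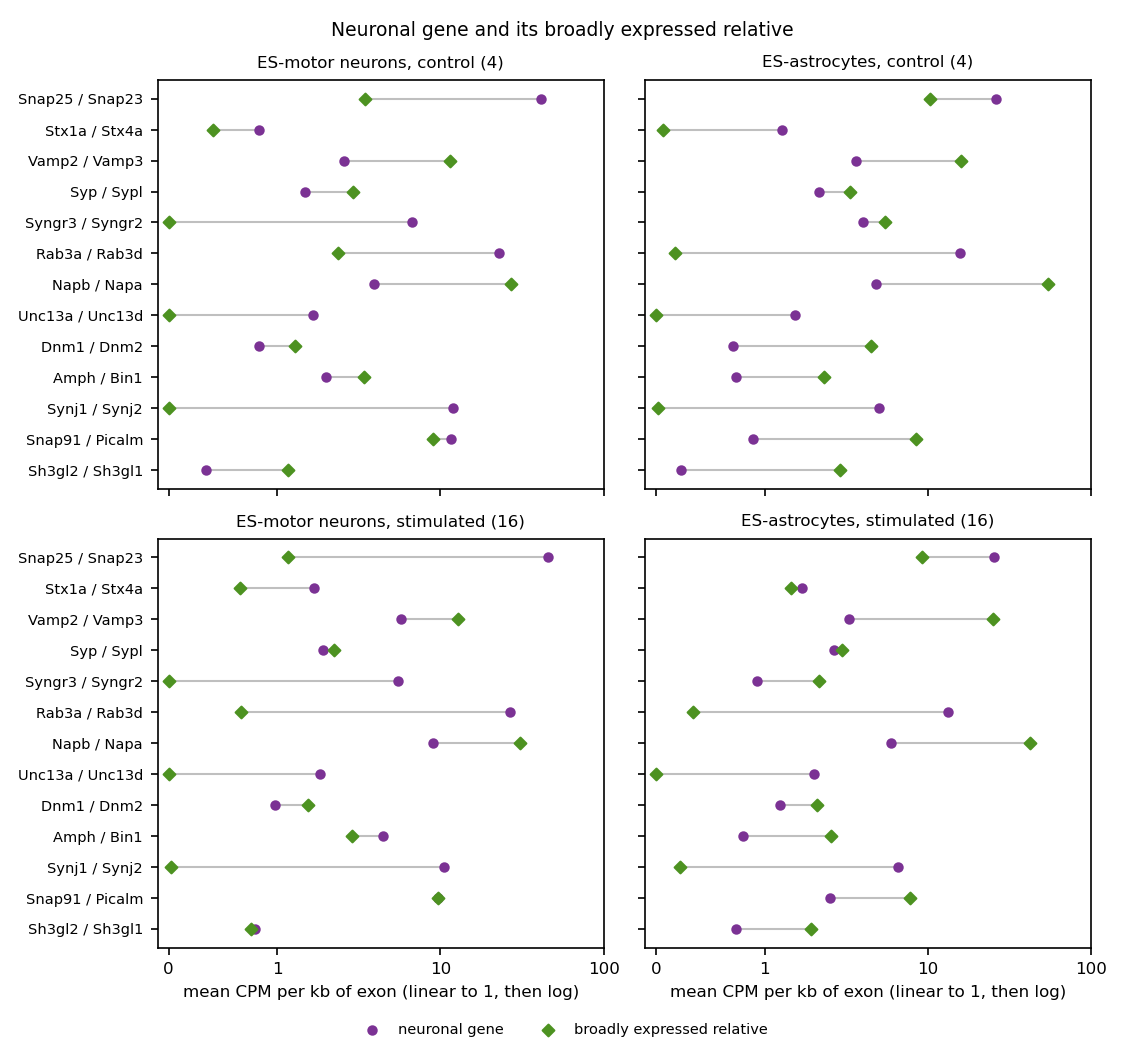
Mean CPM per kb of exon (linear to 1, then logarithmic) of neuronal genes and their more widely expressed relatives, 1 pair a line, in 4 panels for control and stimulated ES-motor neurons and ES-astrocytes. Snap91 lies above Picalm in control ES-motor neurons and below it in control ES-astrocytes, whereas Vamp3 lies above Vamp2 in both control groups.

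A list of 101 other release genes was read the same way. In control cultures 63 were tested; 2 were called higher (Stx3 and Dnm3), 0 lower, beside 0.569% and 1.67% of all genes, where DESeq2 called 5 higher and 2 lower. An unadjusted p under 0.05 was reached by 7 of the 63 (11.1%, beside 10.6% of all genes). Dynamin 3 (Dnm3) ran from 71.02 to 127 CPM in ES-motor neurons and 15.7 to 25.8 in ES-astrocytes without overlap, with 2.31 ± 0.47 (SE, adjusted p = 0.0284). Syntaxin 3 (Stx3) had 326 counts in ES-motor neurons and 1 in ES-astrocytes, a ratio of 411 per effective library size with a 95% counting interval of 73.2 to 16274, and in stimulated cultures it was not called. The median log2 fold change of the 63 was 0.52.

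In stimulated cultures 80 of the 101 were tested, and 5 were called higher and 5 lower beside 3.47% and 8.81% of all genes; 23 reached an unadjusted p under 0.05 (28.8%, beside 24.5%), and the median was 0.29. The vesicular acetylcholine transporter (Slc18a3), also a marker of motor neurons, had a lowest, median and highest of 0, 40.7 and 472 CPM in ES-motor neurons and 0, 0 and 32.3 in ES-astrocytes, with 5.45 ± 0.95 (SE, adjusted p = 4.75e-05). The others called higher were Dnm3 (1.65 ± 0.34, adjusted p = 3.71e-04), the calcium channel subunit Cacna1b (1.35 ± 0.34, adjusted p = 0.00422), liprin-α2 (Ppfia2, 2.68 ± 0.69, adjusted p = 0.00442) and RIM-binding protein 2 (Rimbp2, 2.89 ± 0.98, adjusted p = 0.0382). The vesicular glutamate transporters Slc17a6 and Slc17a8 had 0 counts in all 16 ES-motor neuron libraries and were called lower, with medians of 7.398 and 9.603 CPM in ES-astrocytes, at least 162-fold and at least 163-fold lower against a floor of 3 counts over the group. Syngr2 was likewise called, at 0 in ES-motor neurons and lower by at least 60.3-fold, and Synpr (-4.06 ± 1.10, adjusted p = 0.007102) and Snap23 (-2.72 ± 0.69, adjusted p = 0.00382) were called lower. The genes of either list called higher in both comparisons came to 1, Dnm3.

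Each stimulus was compared with control within a cell type, 4 against 4 libraries; the 4 comparisons of a cell type share their control libraries. In ES-motor neurons edgeR tested 4479, 7348, 8327 and 7947 genes for IL-1α with TNF-α, C1Q with C5, IL-1β with IL-6 and TGF-β2, and called 0%, 0%, 0% and 0.0126% of them. It called 0 of the 14, 23, 25 and 24 members tested, with 1, 1, 0 and 2 at an unadjusted p under 0.05. Of all genes tested 3.19%, 4.38%, 1.18% and 2.78% reached that p; DESeq2 called 0 members in each, beside 0.0062%, 0%, 0.00539% and 0.176% of all its genes. In ES-astrocytes, in the same order, edgeR tested 10444, 10865, 10240 and 10794 genes and called 0% in each. It called 0 of the 28, 27, 24 and 28 members tested, with 2, 1, 0 and 0 at an unadjusted p under 0.05. All genes tested reached that p in 0.8905%, 0.976%, 1.16% and 1.26%; DESeq2 called 1, 0, 0 and 0 members, beside 0.164%, 0.284%, 0.44% and 0.462% of all its genes. The libraries of IL-1α with TNF-α in ES-motor neurons were all shallow, which leaves the fewest genes tested there.

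In ES-motor neurons Napb was among the 3 members of smallest p for all 4 stimuli. Its control libraries stood at 35.2, 27.04, 23.05 and 24.3 CPM, and libraries A to D stood at 53.1, 47.4, 53.6 and 77.9 after IL-1α with TNF-α and 67.4, 58.9, 89.04 and 73.6 after C1Q with C5. After IL-1β with IL-6 they stood at 42.4, 78.9, 59.1 and 40.1 CPM and after TGF-β2 at 82.7, 64.6, 32.3 and 88.98. Except TGF-β2 C, each stimulated library was above all 4 control libraries, but the value of C1Q and C5 A rests on 1 count, where 3 counts equal 202 CPM; no call was made, with adjusted p values of at least 0.990 and log2 fold changes of 1.24, 1.41, 0.98 and 1.27 in the same order. All 4 comparisons share these control libraries and are not separate repeats. The share of all genes separated in this way is not given. Syt4 after TGF-β2 stood at 930.3, 222, 348 and 401 CPM, the highest value from a shallow library, with a log2 fold change of 1.30 ± 0.43 (SE, adjusted p = 0.999). The other members of smallest p in ES-motor neurons were Nsf (1.39) and Sncg (0.73) for IL-1α with TNF-α, Amph (1.63) and Bsn (-1.45) for C1Q with C5, Rab3b (0.94) and Vamp2 (1.38) for IL-1β with IL-6, and Snap91 (-0.90) for TGF-β2. Of these Amph was 0.81 without C1Q and C5 B, Bsn -0.74 without control D, and Vamp2 0.35 without IL-1β and IL-6 A and 2.16 without control B.

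In ES-astrocytes Syt1 was among the 3 members of smallest p for all 4 stimuli. Its control libraries stood at 5.97, 1.26, 5.83 and 4.44 CPM, and libraries A to D stood at 5.28, 29.00, 43.1 and 25.02 after IL-1α with TNF-α and 7.398, 45.7, 14.9 and 31.3 after C1Q with C5. After IL-1β with IL-6 they stood at 12.5, 35.2, 2.57 and 32.3 CPM and after TGF-β2 at 26.3, 14.8, 31.00 and 10.3. The groups overlapped for IL-1α with TNF-α (library A) and IL-1β with IL-6 (library C), and not for C1Q with C5 and TGF-β2; the log2 fold changes were 2.59, 2.55, 2.26 and 2.29 in order of mention, with adjusted p values of at least 0.999. Here too the control libraries are shared, and the share of all genes without overlap is not given. Syngr1 was at 0 in all 4 control ES-astrocyte libraries and stood at 32.2, 8.24, 15.6 and 3.503 CPM after IL-1α with TNF-α, at least 233-fold higher against a floor of 3 counts over the group. Library A held 421 of its 487 counts there, and without it the bound is at least 88.6-fold; edgeR gave an adjusted p of 1.00 and DESeq2 called it. The bound was at least 215-fold after IL-1β with IL-6 (at least 44.1-fold without library C, with 486 of 538 counts) and at least 95.7-fold after TGF-β2 (at least 15.4-fold without library B, with 201 of 220 counts). After C1Q with C5 it was at least 32.9-fold, with all 72 counts in library B and so 0 without it. Rab3c gave log2 fold changes of 1.09, 1.20 and 1.01 for C1Q with C5, IL-1β with IL-6 and TGF-β2, and Sncg gave 1.05 for IL-1α with TNF-α, or 1.75 without control library A. Sv2a gave 2.75 for C1Q with C5 and 2.32 for TGF-β2, and 4.04 and 3.65 without control library B. Rims1 gave 2.21 for IL-1β with IL-6, where control counts are in library D alone, so that without it the control group is at 0.

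**Figure D4:**
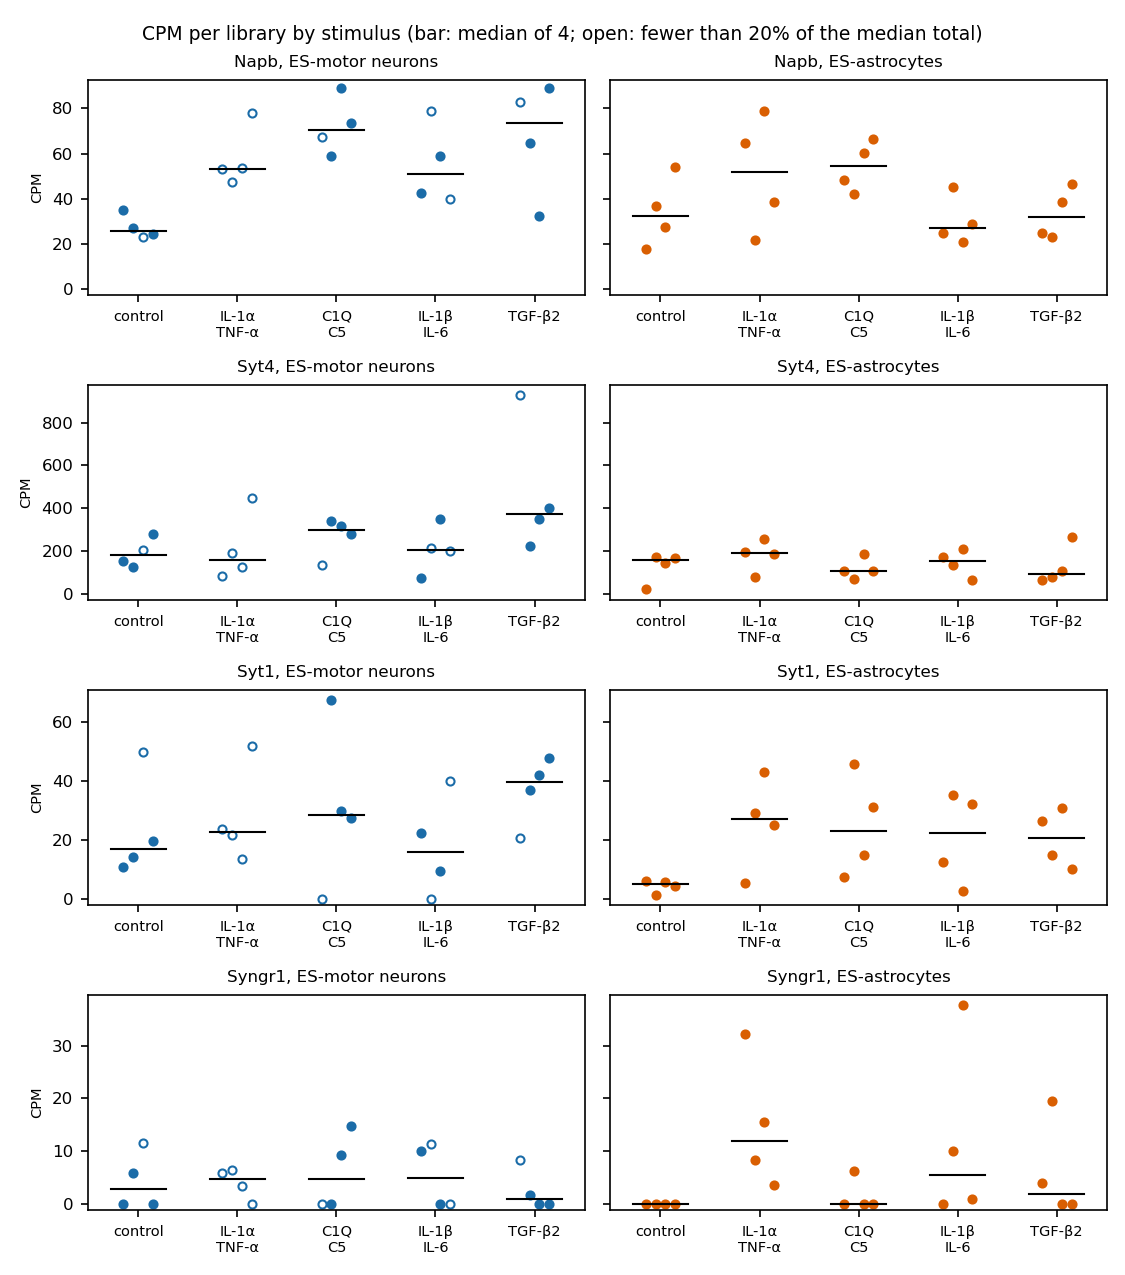
CPM (y axis) of Napb, Syt4, Syt1 and Syngr1 by treatment (x axis) in ES-motor neurons and ES-astrocytes, with points for libraries, bars at the median of 4 and open points for libraries under 20% of the median total. Napb in ES-motor neurons lies above all 4 control libraries in each stimulated library except TGF-β2 C, the value of C1Q and C5 A resting on 1 count. The share of all genes separated in this way is not given.

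Whether a stimulus acted differently in the cell types was tested as an interaction over all 40 libraries and 13227 genes, of which 0% were called for each stimulus. EdgeR called 0 of the 34 members tested, with 1, 0, 3 and 1 at an unadjusted p under 0.05 for IL-1α with TNF-α, C1Q with C5, IL-1β with IL-6 and TGF-β2. In the same order 4.11%, 5.602%, 6.97% and 4.82% of all genes tested reached that p, and DESeq2 called 0 members beside 0.0204%, 0.0286%, 0.0776% and 0.0204% of all its genes. The smallest adjusted p of a member was 0.397, for Cplx1 with IL-1β and IL-6; its ES-astrocyte libraries of that stimulus held 2 counts in all, so the fitted fold change is not given. Syngr1 was among the smallest p for all 4 stimuli, against control ES-astrocytes at 0. Bsn gave -3.91 for C1Q with C5, -1.31 without the libraries of letter D and -4.71 without those of letter C; control ES-astrocyte counts of Bsn are in library A alone, so without letter A that group is at 0 and no value is given. Syt1 gave interaction values (ES-motor neurons less ES-astrocytes) of -2.32, -1.80 and -2.54 for IL-1α with TNF-α, C1Q with C5 and IL-1β with IL-6, Rab3c -0.89 for IL-1α with TNF-α, and Napb 1.31 and Snap25 1.03 for TGF-β2, at adjusted p values of at least 0.656. With the libraries of 1 letter left out, Syt1 was -3.14 (A), -1.33 (C) and -2.92 (D) for IL-1α with TNF-α, -2.51 (A) for C1Q with C5, and -3.36 (A) and -1.77 (B) for IL-1β with IL-6, and Snap25 was 0.34 (C) for TGF-β2.

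Promoters were taken from RefSeq (GRCm38.p6; 250 bases before to 50 after each gene's start), where 32 of the 41 members matched by symbol, with 42 windows of the 32851 in the set; Syt4, Syt5, Syt7, Doc2b, Syn3, Syngr3, Snap25, Vamp2 and Rims2 had no match. The starts behind 34 of the 42 windows lie within 1 kb of the gene's start in GENCODE M21 and those behind 8 lie farther away, among them the only window of Cplx2, 68793 bases before that start. The cAMP response element TGACGTCA was searched because forskolin raises cAMP, its shorter form TGACG lies inside it, and CAGCACC and GGACAG are the left and right parts of the RE1 element of neuronal genes; both strands were read. The full element was in 2 windows (4.76%, Napa and Syn1) beside 1.79% of all promoters, and the shorter form in 11 (26.2%) beside 20.8%. CAGCACC was in 5 (11.9%) beside 7.14%, and GGACAG in 10 (23.8%) beside 22.2%. A match describes the letters and shows no binding. Shown 5′ to 3′ on the gene's strand are the called members with a window at a start within 1 kb, and Napa, which holds the full element, with motif letters in capitals: Sncg (chr14:34374620-34374919, minus strand, CGTCA being TGACG on the other strand), Snap91 (chr9:86880659-86880958, minus strand, GGACAG), Amph (chr13:18948101-18948400, plus strand, none of the motifs), and Napa (chr7:16098330-16098629, plus strand, TGACGTCA, with GGTGCTG as CAGCACC on the other strand).
Sncg: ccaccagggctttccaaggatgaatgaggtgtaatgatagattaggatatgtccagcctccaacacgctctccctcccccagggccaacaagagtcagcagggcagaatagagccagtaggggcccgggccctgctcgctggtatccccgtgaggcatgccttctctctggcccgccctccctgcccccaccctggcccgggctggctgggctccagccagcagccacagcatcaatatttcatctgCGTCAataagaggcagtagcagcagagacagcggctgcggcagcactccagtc
Snap91: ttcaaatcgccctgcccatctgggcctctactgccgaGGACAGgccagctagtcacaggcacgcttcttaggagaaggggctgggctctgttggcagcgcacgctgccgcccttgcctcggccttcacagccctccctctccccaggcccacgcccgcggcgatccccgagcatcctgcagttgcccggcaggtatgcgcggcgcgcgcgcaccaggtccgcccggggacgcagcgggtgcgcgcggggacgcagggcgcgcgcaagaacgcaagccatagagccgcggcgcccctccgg
Amph: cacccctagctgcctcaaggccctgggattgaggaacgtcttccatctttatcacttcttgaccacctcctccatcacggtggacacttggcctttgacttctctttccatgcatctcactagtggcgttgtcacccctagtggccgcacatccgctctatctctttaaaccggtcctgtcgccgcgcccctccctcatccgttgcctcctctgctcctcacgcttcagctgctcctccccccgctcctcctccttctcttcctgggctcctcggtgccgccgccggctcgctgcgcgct
Napa: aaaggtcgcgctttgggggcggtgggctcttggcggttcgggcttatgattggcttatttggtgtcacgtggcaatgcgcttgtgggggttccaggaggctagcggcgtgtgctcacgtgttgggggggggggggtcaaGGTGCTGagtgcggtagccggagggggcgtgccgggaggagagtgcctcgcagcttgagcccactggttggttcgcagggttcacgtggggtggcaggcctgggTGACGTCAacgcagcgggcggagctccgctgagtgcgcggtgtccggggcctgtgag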

How the data were processed

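The deposited values were raw counts per Ensembl gene. The authors mapped paired-end reads with STAR and annotated genes by Ensembl identifier through biomaRt. The counting tool, the strand setting and the annotation release used for counting are not stated. Symbols and exon lengths came from GENCODE M21. Members and lists were chosen with earlier results of these data known. Tests were edgeR 4.0.16 (filterByExpr, TMM, robust quasi-likelihood fit) in R 4.3.3, with Benjamini-Hochberg adjustment over all genes tested and a call at an adjusted p of at most 0.05 with an absolute log2 fold change above 1; the test was tested on simulated data. SE is the absolute log2 fold change divided by the square root of F. Alternatives were DESeq2 1.42.0 (alpha 0.1), RLE size factors, no filter, replicate letter as a block, without libraries under 20% of the median total, all 40 libraries in 1 fit, and each library left out; plate 1 or plate 2 libraries only was chosen after seeing the data. The overlap of Syn3 with Timp3 was also examined after seeing the data. Named genes: every member in both cell type comparisons; for each stimulus and interaction, called members or the 3 of smallest p; of the other genes, those called, up to 3 per role. Tables and figures used Python 3.11.15, pandas 2.3.3, matplotlib 3.10.9, scipy 1.17.1 and numpy 2.4.6.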

Additional observations from a re-analysis of the deposited data

Results flagged for a closer look

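Every member was looked at in the 4 control libraries of each cell type. In 19 of the 73 such groups with unequal values 1 library was far from the other 3 by Dixon's test. In 7 of the 19 the other 3 were at 0, which meets the test by construction. Chance flags about 1 in 20 groups only where values are normally distributed. CPM from few counts need not be, so the 19 cannot be weighed against that rate. Of the 19, 9 were in ES-astrocyte library A. There Syt11 alone was low, at 120.2 CPM (others 205 to 212), and the others high: Rab3a at 118 CPM (others 0.364 to 20.3), Vamp2 at 20.9 (others 10.9 to 12.4), Napa at 577 (others 82.1 to 88.5), Syn1 at 27.9 (others 0 to 0.0902), Cplx1 at 11.7 (others 0 to 0.855), Bsn at 13.5 (others 0), Syt5 at 9.16 (others 0) and Sncb at 1.92 (others 0). Other ES-astrocyte libraries high were B with Sv2c at 17.2 CPM (others 0) and Vamp1 at 3.61 (others 0), C with Unc13b at 59.7 (others 0.271 to 7.35), and D with Rims1 at 12.8 (others 0) and Dnm1 at 13.5 (others 0 to 1.07). Among ES-motor neurons high values were in library A with Vamp1 at 3.61 CPM (others 0 to 0.102), in B, the deepest of its group, with Rab3c at 98.3 (others 74.1 to 76.8), Stx1a at 7.96 (others 0 to 0.904) and Syn2 at 0.969 (others 0), and in D with Syt11 at 319 (others 210.3 to 225). Why these libraries differ was not tested.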

How the results depend on the processing

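Across alternatives other than leaving out a library, 90 of 95 counts of members stayed within 1.5 times the reported count. The 5 that moved were, with DESeq2, 1 member higher (Syt1) and 1 lower (Cplx2) in control cultures and 1 (Syngr1) for IL-1α with TNF-α in ES-astrocytes, and, with the plate 1 libraries only, 0 higher and 0 lower in stimulated cultures; that alternative keeps 4 against 4 libraries, and all its ES-motor neuron libraries are shallow. With libraries left out 159 of 160 counts stayed; members higher in control cultures ran from 0 to 2, with 2 (Bsn and Sncg) without ES-astrocyte control A. For IL-1α with TNF-α in ES-motor neurons and its interaction, the alternative without shallow libraries could not be fitted, since no such library was left. With the replicate block the calls of members were 0 in control cultures and 4 higher and 2 lower in stimulated ones. The main fits left the letter out, and whether letters pair the cell types by culture is not settled here. Of 20 pairs 7 correlated best with their own letter, at correlations of -0.14 to 0.098 over all pairs. Values this weak neither show nor exclude a pairing.

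Of 624 values of single genes under those alternatives, 588 kept direction and side of the threshold, 17 reversed, 8 newly passed and 11 no longer passed. The 11, all in stimulated cultures, were Syt4 with DESeq2, RLE, no filter, all 40 libraries and plate 1, Snap91 without shallow libraries and with plate 1, and Syn3, Cplx2, Amph and Sncg with plate 1. The 8 were, with DESeq2, Syt1 and Cplx2 in control cultures, Syngr3 and Cplx1 in stimulated ones and Syngr1 for IL-1α with TNF-α in ES-astrocytes, then Cplx1 with all 40 libraries and Snap25 without shallow libraries and with plate 2. The reversed ones, all uncalled, were in control cultures Syp at 0.011 and Vamp2 at 0.059 without shallow libraries, and Sv2c at 0.0074 with DESeq2, 0.014 with RLE, 0.030 with no filter, 0.064 without shallow libraries and 4.46 with the replicate block. In stimulated cultures they were Unc13a at -0.11 with DESeq2, -0.14 with RLE, -0.024 with no filter and -0.038 with all 40 libraries, Syt5 at -0.99 with all 40 libraries and Dnm1 at -0.12 with RLE; with the plate 1 libraries only they were Rab3b at -0.50 and Stx1a at -0.89, and with the plate 2 libraries only Unc13a at -0.18 and Dnm1 at -0.17. The cause was not tested.

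With libraries left out 1464 of 1535 values kept direction and side, 51 reversed, 16 no longer passed (all Syt4 in stimulated cultures) and 4 newly passed (Bsn and Sncg in control cultures, and Cplx1 in stimulated ones without either of 2 libraries). Of the 97 single values, 37 moved by over 1.5-fold with some library or letter left out and 17 by over 2-fold; of the called ones Amph alone did, by over 1.5-fold. Those that reversed ran, in control cultures, from -0.92 to 0.033 (Syp), -0.43 to 0.39 (Sv2c), -1.21 to 0.059 (Vamp2), -1.49 to 0.35 (Napa), -0.48 to 0.12 (Napb) and -0.10 to 0.48 (Unc13a). In stimulated cultures they ran from -0.67 to 0.88 (Syt5), -0.60 to 0.30 (Sv2a), -1.10 to 0.14 (Sv2c), -0.14 to 0.14 (Unc13a) and -0.34 to 0.64 (Dnm1), and the interaction of Syngr1 with C1Q and C5 ran from -6.97 to 1.63. The cause was not tested. Depth limits the low members most: in the shallowest ES-motor neuron library a count of 3 equals 202 CPM.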
